A study of Rattus norvegicus with 2 samples.

Results

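Immediate early and early response genes were examined in 2 populations of natural killer (NK) cells from rat spleen. The genes were taken from a list of 35 symbols, and every probe set annotated with 1 of those symbols alone was used. Of these 35 genes, 34 had a probe set, among 14217 genes represented in all, and 1 (Btg2) is not analysed here. Where a gene had several probe sets, the one with the highest mean log2 signal stood for the gene. Of the 34 genes, 32 had a signal above the floor of 20.4 on both arrays, and none was above it on only 1. The floor is the median of all signals of both arrays, and lower signals were set to it before a ratio was taken.

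Both populations came from PVG.7b rats, 8 to 12 weeks old. Spleen mononuclear cells were depleted of cells bearing TCRαβ, CD68, CD5, Igκ or CD45RA, and NKR-P1A+ CD3- cells were then sorted that stained either for NKR-P1B, an inhibitory lectin-like receptor, or for Ly49s3, an activating receptor of the Ly49 family, but not for both. Sort purity was above 90%. All cells had passed the same enrichment, antibody staining and flow cytometric sort, and the labels name no stimulation. Each population was hybridised to 1 Affymetrix Rat Genome 230 2.0 array, so there are no replicates, no test could be made, and precision is limited by having so few arrays. The sources used here do not say how the 9 rats were divided or pooled. The NK markers Klrb1a, with signals of 3740 in NKR-P1B+ and 3813 in Ly49s3+ cells, and Prf1, with 4024 and 3006, were high on both arrays. Of 7 T cell genes, Cd3d and Cd3e were below the floor on both, whereas Cd3g, Cd5, Cd6 and Cd28 were above it on both and Cd4 in Ly49s3+ cells alone.

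Immediate early genes are transcribed within minutes of a stimulus, without new protein synthesis, by factors already present in the cell, among them serum response factor (SRF), its ETS-family partners and CREB. Their products are largely transcription factors (FOS, JUN, EGR, NR4A) and RNA-binding proteins that switch messages off again (ZFP36), and many of their mRNAs are short-lived. In lymphocytes they follow receptor signalling, cytokines and cell stress.

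The list as a whole had higher signals in NKR-P1B+ cells. Of the 32 measured genes, 8 were at least 1.5-fold higher there, against 5.06% of all 9114 measured genes, and none was 1.5-fold higher in Ly49s3+ cells, where 5.72% of all measured genes were. The 8 genes were Atf3, Ppp1r15a, Gadd45a, Cebpb, Nr4a1, Zfp36, Junb and Maff. By any amount, 25 of the 32 were higher in NKR-P1B+ cells, against 47.6% of all measured genes. Log2 differences, given as NKR-P1B+ minus Ly49s3+, had a median of 0.28 over the list and −0.02 over all measured genes. At least 2-fold higher were 2 of the 32, Atf3 and Ppp1r15a, against 1.78% of all measured genes. In bulk samples, a smaller share of cells with a transcript and less of it per cell cannot be told apart.

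In place of a replicate error, the disagreement between probe sets of 1 gene was used. The SD of a gene's log2 difference estimated this way was 0.32 for mean signals from the floor to 64, 0.23 from 64 to 256, 0.17 from 256 to 1024 and 0.095 above 1024. Of the 32 genes, 17 differed between the arrays by more than 2 such SDs, 16 of them toward the NKR-P1B+ array and 1, Klf4, toward the Ly49s3+ array. Of all 9114 measured genes, 17.6% differed by more than 2 such SDs, 8.8% toward the NKR-P1B+ array and 8.82% toward the Ly49s3+ array. This SD leaves out the variation between rats, sorts and hybridisations, which was not measured.

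**Figure D1:**
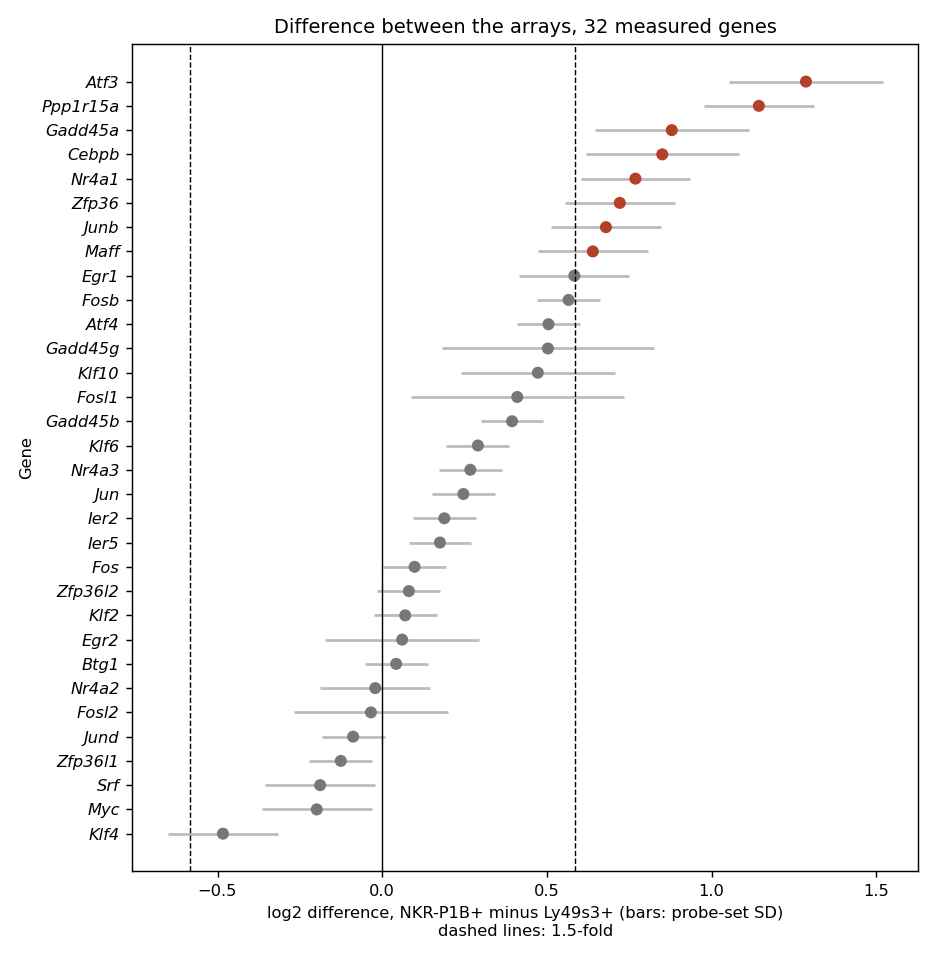
Log2 difference in signal between the NKR-P1B+ and the Ly49s3+ array (x axis) for the 32 measured early response genes (y axis), ordered by size. Bars are the probe-set SD of the gene's signal range, dashed lines mark 1.5-fold, and the 8 genes past it are red, from Maff at 0.64 to Atf3 at 1.29.

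The directions are relative to the deposited scale. The poly-A spikes, bacterial transcripts added to the RNA, had a median log2 difference of −0.53 over 17 probe sets, with a range from −0.97 to 0.21. Scaled to these spikes, the arrays put 24 of the 32 genes and 38.03% of all measured genes at least 1.5-fold higher in NKR-P1B+ cells, and all 32 genes were nominally higher there, Klf4 and the 6 other genes that were lower on the deposited scale included. The median of the list was then 0.81 and that of all measured genes 0.50. Spike scaling multiplies each array by 1 factor, which shifts all genes alike except near the floor. The gap between these medians, 0.31 with spike scaling and 0.30 on the deposited scale, was therefore bound to stay nearly the same.

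The promoters were searched for the sites through which such genes are classically switched on. RefSeq's table of rat promoters (GRCr8) held 26 of the 35 genes, and the 250 bases before the listed start were read on both strands. Fos, Jun, Egr3, Ier3, Nr4a3, Klf2, Klf10, Myc and Atf3 had no promoter there and were not searched. A CArG box, the site bound by SRF, was found in 5 of the 26 (Egr1, Egr2, Srf, Zfp36 and Klf6), or 19.2%, against 1.497% of all 33469 promoters in the table and 1.37% of those of measured genes. The full cAMP response element (CRE, TGACGTCA), bound by CREB and ATF proteins, was found in another 5 (Ppp1r15a, Maff, Btg2, Jund and Ier2), against 1.59% of all promoters and 3.04% of those of measured genes. Its short core TGACG, which the full element contains, was in 16 of the 26, against 18.2% and 29.3%. EGR sites (GCGGGGGCG or GCGTGGGCG) were in 6, against 2.85% and 5.61%. An AP-1 site (TGAGTCA or TGACTCA) was in none of the 26, against 4.05% of all promoters and 3.20% of those of measured genes. The extended ETS site CCGGAAGT was in none either, against 3.10% and 7.54%. Shorter or other forms of the ETS site were not searched. The TATA box letters (TATAAA) were in 10, against 12.9% and 6.35%. In Fosb, Klf4 and Srf they were matched on the opposite strand only, where the match does not read in the gene's direction.

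The sequences below were chosen because they show CArG boxes beside genes that did and did not reach 1.5-fold, and CREs beside genes that did. The promoters of Ier2 and Jund, CRE genes that did not reach it, are not printed. Each is written 5′ to 3′ on the gene's own strand and ends at the base before the start, with CArG boxes and CREs in capitals. Egr1 (chr18:26736828-26737077, plus strand) and Srf (chr9:21923826-21924075, plus strand) each hold a pair of CArG boxes, and Zfp36 (chr1:92799109-92799358, minus strand) holds 1. Ppp1r15a (chr1:105139597-105139846, minus strand) and Maff (chr7:112792537-112792786, plus strand) each hold 1 CRE.
Egr1: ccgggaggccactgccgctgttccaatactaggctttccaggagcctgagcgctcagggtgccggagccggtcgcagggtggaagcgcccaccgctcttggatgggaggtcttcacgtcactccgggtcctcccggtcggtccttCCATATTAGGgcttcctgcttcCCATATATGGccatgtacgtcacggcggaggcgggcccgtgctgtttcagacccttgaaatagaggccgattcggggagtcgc
Srf: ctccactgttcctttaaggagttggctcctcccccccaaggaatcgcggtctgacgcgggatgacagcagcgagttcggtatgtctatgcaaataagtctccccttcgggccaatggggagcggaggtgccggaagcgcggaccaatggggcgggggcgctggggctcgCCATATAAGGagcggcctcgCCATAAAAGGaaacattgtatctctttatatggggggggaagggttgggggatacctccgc
Zfp36: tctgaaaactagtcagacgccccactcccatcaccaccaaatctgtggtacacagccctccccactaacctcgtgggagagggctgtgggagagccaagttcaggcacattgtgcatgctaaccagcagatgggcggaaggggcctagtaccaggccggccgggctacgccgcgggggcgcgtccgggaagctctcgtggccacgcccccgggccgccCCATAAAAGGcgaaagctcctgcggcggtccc
Ppp1r15a: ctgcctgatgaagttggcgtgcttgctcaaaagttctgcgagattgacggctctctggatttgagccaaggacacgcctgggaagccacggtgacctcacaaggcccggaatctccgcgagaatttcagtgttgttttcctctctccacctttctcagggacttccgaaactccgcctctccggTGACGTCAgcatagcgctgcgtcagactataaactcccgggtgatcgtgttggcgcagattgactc
Maff: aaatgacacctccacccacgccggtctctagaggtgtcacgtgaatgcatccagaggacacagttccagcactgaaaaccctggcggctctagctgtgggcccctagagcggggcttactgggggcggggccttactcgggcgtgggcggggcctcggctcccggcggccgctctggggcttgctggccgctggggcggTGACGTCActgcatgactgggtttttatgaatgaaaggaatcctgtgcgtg

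Genes with and without these matches were found on both sides of 1.5-fold. Of the 5 genes with a CArG box, only Zfp36 was at least 1.5-fold higher in NKR-P1B+ cells; Egr1 had a log2 difference of 0.58, Klf6 0.29, Egr2 0.06 and Srf −0.19. Of the CRE genes, Ppp1r15a and Maff were past 1.5-fold, whereas Ier2 had 0.19 and Jund −0.09. The core TGACG was in 6 of the 7 promoters of genes past 1.5-fold that were searched, which leaves out Atf3. It was in 9 of the 18 searched promoters of the other measured genes. A match is a string of letters and does not show that a factor binds there.

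The AP-1 subunits are leucine zipper proteins that bind DNA as FOS-JUN or JUN-JUN pairs. Among them Junb, a JUN protein with weaker transactivation than c-Jun, was the only one past 1.5-fold, with a signal of 1274 in NKR-P1B+ cells and 796 in Ly49s3+ cells (1.60-fold). Fosb, a FOS partner of the JUN proteins, had 2576 and 1740 (1.48-fold), a log2 difference of 0.57 or 5.93 probe-set SDs. Fos, the founding member and the classical immediate early gene, had 3215 and 3003, which differ by 1.07-fold. Fos and Fosb thus had unequal differences on these arrays, 0.10 against 0.57 in log2. Jun had 3110 and 2622 (1.19-fold), and its other probe sets gave log2 differences of 0.33 and 0.36. Fosl1, a late FOS family member, had low signals of 48.1 and 36.2 (1.33-fold, 1.27 SDs). Jund, the JUN protein found in resting cells, and Fosl2 were nominally lower in NKR-P1B+ cells, with 2041 against 2170 and 125 against 128, both by less than 1 SD. The 7 subunits had a median log2 difference of 0.25.

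The EGR zinc finger factors and the NR4A orphan nuclear receptors are induced by antigen receptor and other signals in lymphocytes. Nr4a1, which encodes NUR77, a widely used reporter of receptor signalling, had 950.1 in NKR-P1B+ cells and 558 in Ly49s3+ cells, a 1.70-fold difference. Egr1 lay just short of 1.5-fold, with 1175 and 784 (1.498-fold, 3.50 SDs), and passed it when the arrays were centred on their medians. Egr2, which restrains lymphocyte activation, had 94.9 and 91.0 and differed by less than 1 SD. Egr3 was below the floor on both arrays, with 13.8 and 14.0. Nr4a3, the NR4A member also called NOR1, had 2053 and 1705 (1.204-fold), with the same direction on its 3 probe sets. Nr4a2, or NURR1, had 394 and 400 on the probe set used but 221 and 165 on its other one, log2 differences of −0.02 and 0.42. Within the NR4A family, then, Nr4a1 was the only one past 1.5-fold, and the log2 differences were 0.77, −0.02 and 0.27 for Nr4a1, Nr4a2 and Nr4a3.

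The IER genes encode short nuclear or cytoplasmic proteins of early responses. Ier2 had 2438 in NKR-P1B+ cells and 2139 in Ly49s3+ cells (1.14-fold), and Ier5 had 2062 and 1826 (1.13-fold), both under 2 SDs. Ier3, an inhibitor of apoptosis, was below the floor with 12.6 and 8.5. No IER gene was therefore past 1.5-fold.

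The ZFP36 proteins bind AU-rich elements and lead mRNAs of cytokines and early genes to decay. Zfp36, which encodes tristetraprolin, had 1025 in NKR-P1B+ cells and 621 in Ly49s3+ cells (1.65-fold, 4.33 SDs). Its relatives Zfp36l1, with 2903 and 3167, and Zfp36l2, with 4071 and 3849, differed by 1.09-fold and 1.06-fold in opposite directions. Btg1, which encodes an antiproliferative protein, had 4880 and 4739 (1.03-fold). Among the Krüppel-like factors, Klf2, which keeps lymphocytes quiescent and drives S1pr1, had 1505 and 1434 (1.05-fold). Another probe set of Klf2 had 64.0 and 91.5, a log2 difference of −0.52. With spike scaling the log2 difference was 0.41 for Zfp36l1 and 0.61 for Zfp36l2.

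Klf4, an inhibitor of proliferation, had the lowest log2 difference of the list. Its signal was 797 in NKR-P1B+ cells and 1114 in Ly49s3+ cells, so that it was 1.40-fold lower in NKR-P1B+ cells (log2 −0.48, 2.90 SDs), though it stood at 0.05 with spike scaling. Klf6, an early response member of the family, had 1946 and 1591 (1.22-fold), and Klf10, which is induced by TGF-beta, had 125 and 89.8 (1.39-fold). The KLF factors therefore lay on both sides, without any past 1.5-fold.

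The GADD45 proteins bind kinases of the p38 and JNK routes, and their genes respond to DNA damage and cytokines. All 3 were higher in NKR-P1B+ cells. Gadd45a, a p53 target, had 246 against 134 (1.84-fold, 3.77 SDs). Gadd45b, which is induced by NF-kappaB, had 1381 against 1051 (1.31-fold, 4.13 SDs), and Gadd45g had 62.5 against 44.1 (1.42-fold, 1.56 SDs). Only Gadd45a was past 1.5-fold.

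The group of stress and other factors held 7 genes and the 2 largest differences of the list, those of Atf3 and Ppp1r15a. Of the 7, 4 were at least 1.5-fold higher in NKR-P1B+ cells, against 5.06% of all measured genes. The grouping was made with earlier results of these data known, so this count does not set stress genes apart from the rest of the list. Atf3, a leucine zipper factor induced by many stresses, had 206 in NKR-P1B+ cells and 84.4 in Ly49s3+ cells, a 2.44-fold difference that ranked 82 among the 9114 measured genes ordered from the most positive to the most negative log2 difference. Ppp1r15a, which encodes GADD34, the subunit that directs a phosphatase to eIF2alpha and so restarts translation after stress, had 526 and 238 (2.21-fold, 6.86 SDs). Cebpb, a factor of inflammatory and stress programmes, had 99.7 and 55.3 (1.80-fold). Maff, a small MAF protein, had 591 and 379 (1.56-fold). Atf4, the translationally controlled factor upstream of Atf3 and Ppp1r15a, had 2718 and 1915 (1.42-fold, 5.29 SDs). The other 2 genes of this group were nominally lower in NKR-P1B+ cells on the deposited scale. Myc, a growth regulator, had 534 against 613, and Srf, the factor that drives many of these genes, had 376 against 428, in both cases under 2 SDs.

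**Figure D2:**
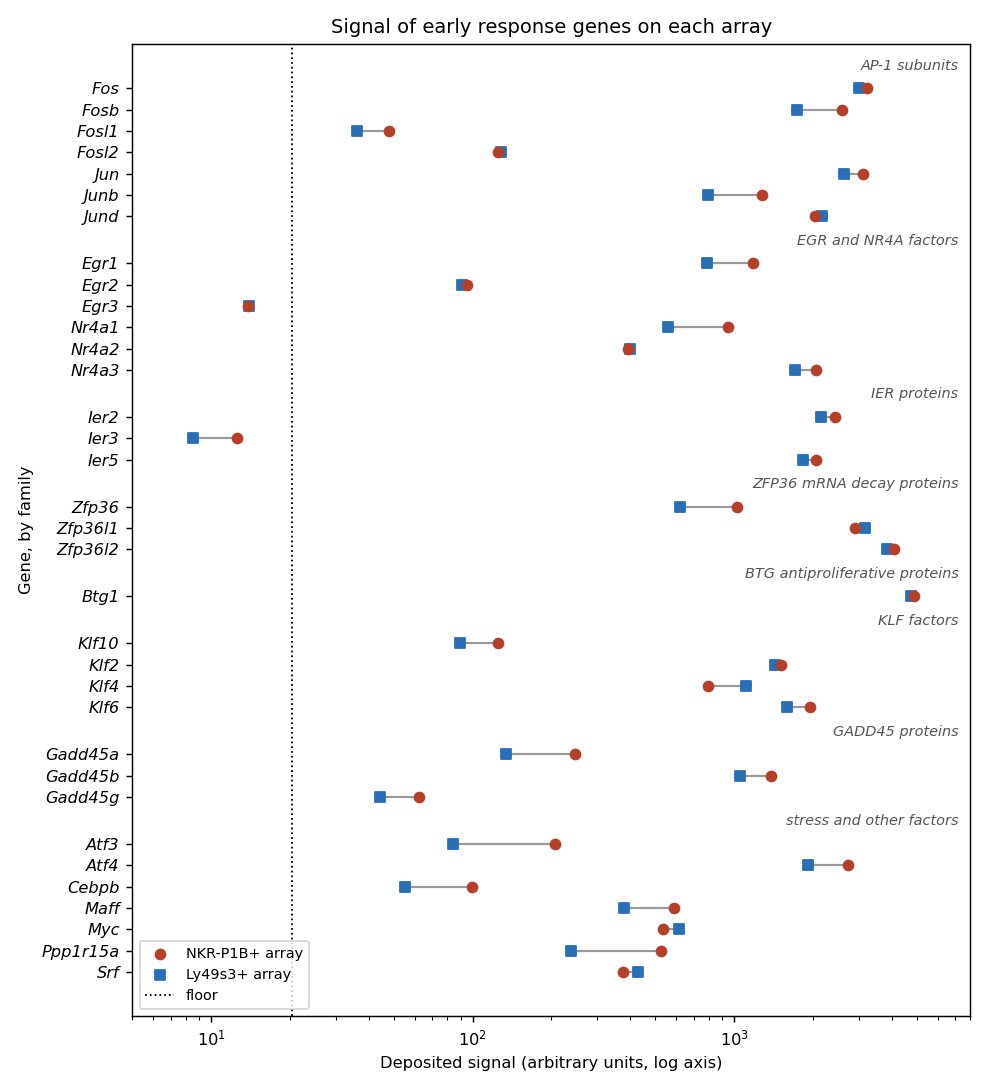
Deposited signal (x axis, log scale, arbitrary units) of the 34 genes with a probe set, by family (y axis), in NKR-P1B+ cells (red circles) and the Ly49s3+ array (blue squares). The dotted line is the floor of 20.4, with Egr3 and Ier3 to its left on both arrays; Atf3 and Ppp1r15a have the widest gaps to the right of it.

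The differences were not spread evenly over signal ranges. Of 14 genes with a mean signal above 1024, none was 1.5-fold apart and 12 were nominally higher in NKR-P1B+ cells, with a median log2 difference of 0.18. In that range 1.75% of all measured genes were 1.5-fold higher there, and 51.7% were higher by any amount, with a median of 0.01. Of 10 genes between 256 and 1024, 5 were past 1.5-fold, against 2.89% of all measured genes in the range. Between 64 and 256 it was 3 of 6, against 4.95%. Both genes under 64, Fosl1 and Gadd45g, were within 1.5-fold.

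**Figure D3:**
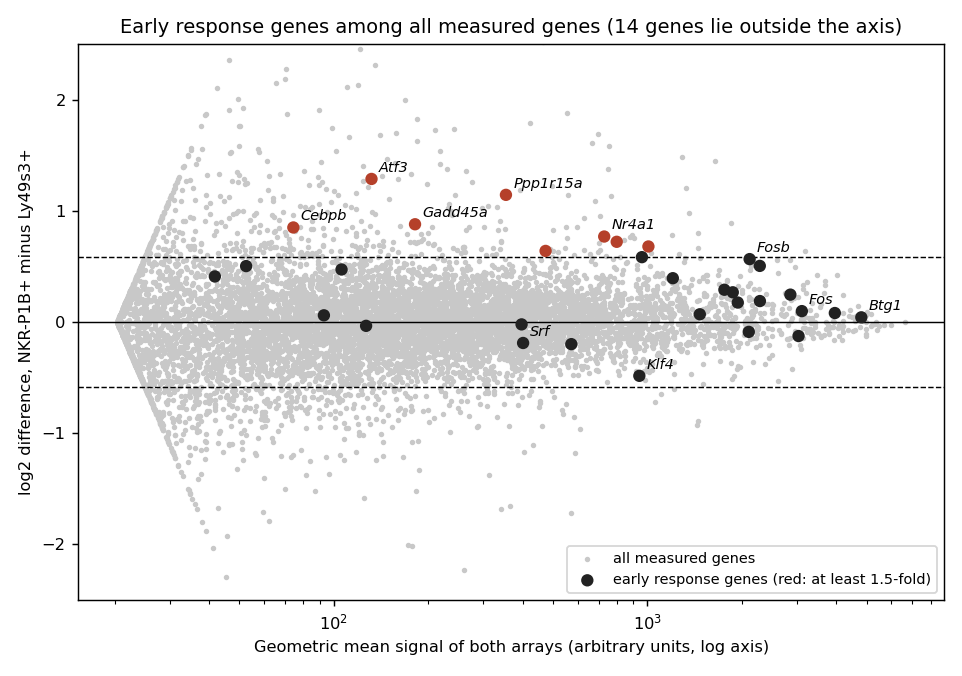
Log2 difference (y axis) against geometric mean signal of both arrays (x axis, log scale) for all 9114 measured genes (grey) and the 32 early response genes (black, or red where at least 1.5-fold), with 14 grey genes outside the axis. Genes with 1 array at the floor form the straight edges on the left and are bounds, and all 8 red points lie below a mean signal of 1024.

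Several genes had more than 1 probe set. Of 47 probe sets of the list above the floor on at least 1 array, 34 (72.3%) were higher in NKR-P1B+ cells, against 47.5% of 12170 such probe sets overall; probe sets of 1 gene share the RNA and the array. In 9 genes with 2 or more such probe sets, 5 (Fosl2, Klf2, Klf6, Nr4a2 and Zfp36l2) had both signs. Jun and Nr4a3 were higher in NKR-P1B+ cells by all 3 of their probe sets, and Jund and Srf lower by both, where the second one of Srf had 20.3 in NKR-P1B+ cells, under the floor. For Klf2 the log2 differences ran from −0.52 to 0.16 over 4 probe sets. All 8 genes past 1.5-fold had a single probe set, so none of them was measured a second time on these arrays.

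**Figure D4:**
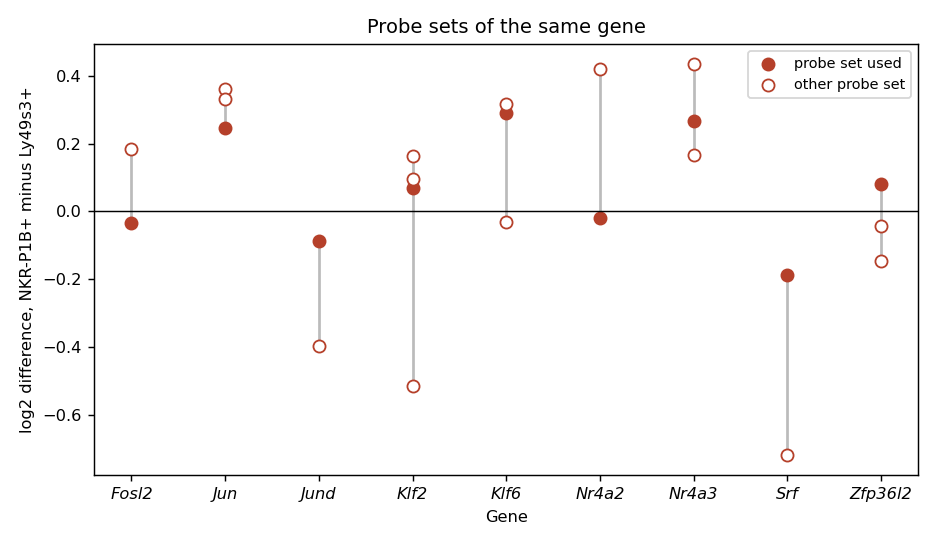
Log2 difference, NKR-P1B+ minus Ly49s3+ (y axis), of each probe set above the floor on at least 1 array, for the 9 early response genes with 2 or more (x axis). Filled points are the probe sets used, and the points of Fosl2, Klf2, Klf6, Nr4a2 and Zfp36l2 fall on both sides of 0.

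Related lists place these genes in their pathway. Of the kinases and factors that lead from ERK to SRF, 11 of 19 had a probe set and were measured. None of the 11 was 1.5-fold apart, and the median log2 difference was −0.02. Of all measured genes, 5.06% were at least 1.5-fold higher in NKR-P1B+ cells and 5.72% in Ly49s3+ cells. At those shares few genes of a list this short would be past 1.5-fold. Of the JNK, p38, CREB and NFAT routes, 21 of 25 were measured and only the p38-activated kinase gene Mapkapk3 was past 1.5-fold (36.1 against 23.7, 1.52-fold), with a list median of 0.01. A second list of early response genes that shares no gene with the first had 43 measured genes and a median of 0.25. Of these 43 genes, 9 (20.9%) were at least 1.5-fold higher in NKR-P1B+ cells and 4 in Ly49s3+ cells. Both lists were chosen with earlier results of these data known and were read from the same 2 arrays. The second is therefore no independent check of the first. In the second list Tnf, the inflammatory cytokine, was at least 4.29-fold higher in NKR-P1B+ cells (87.5 against 8.7). Dusp6, a phosphatase that shuts off ERK, was 3.39-fold higher (91.6 against 27.0). Nfkbid, a nuclear IkappaB protein, was 2.44-fold higher (249.9 against 102.6). Among the 4 genes toward the Ly49s3+ array were Id3, an inhibitor of E proteins (at least 2.07-fold, 42.2 against 8.4), and Plk3, a polo-like kinase (at least 1.84-fold, 37.5 against 15.7).

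Genes of the integrated stress response, to which Atf4, Atf3 and Ppp1r15a belong, lay on both sides. Of 20 other measured genes of that response, 10 were higher in NKR-P1B+ cells by any amount and 10 in Ly49s3+ cells. Of all measured genes, 47.6% were higher in NKR-P1B+ cells. On that list 1 (5.0%) was at least 1.5-fold higher in NKR-P1B+ cells, near the 5.06% of all measured genes. At least 1.5-fold higher in Ly49s3+ cells were 4, against 5.72% of all measured genes, and the list median was 0.00. The 1 past 1.5-fold in NKR-P1B+ cells was Ddit3, which encodes CHOP (609.8 against 406, 1.501-fold). Asns, the asparagine synthetase gene and an ATF4 target, was 2.29-fold higher in Ly49s3+ cells (85.1 against 37.2), the serine synthesis gene Psat1 2.11-fold (257 against 122), and Ddit4, an inhibitor of mTORC1, 1.84-fold (218 against 118). Of 10 measured heat shock genes, none was 1.5-fold higher in NKR-P1B+ cells, against 5.06% of all measured genes. The co-chaperone gene Bag3 was 1.82-fold higher in Ly49s3+ cells (79.2 against 43.4), and the list median was −0.04.

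**Figure D5:**
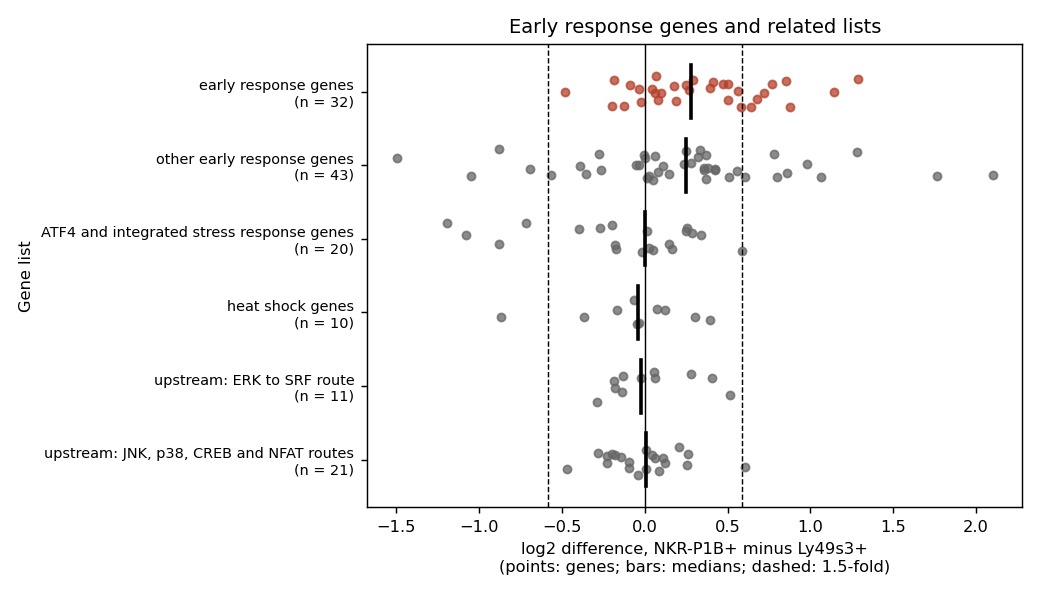
Log2 difference, NKR-P1B+ minus Ly49s3+ (x axis), of each measured gene (points) in the early response list (red) and in related lists (grey), with the median of each list (bar) and 1.5-fold marked (dashed). The 2 early response lists have medians of 0.28 and 0.25, and the other lists lie between −0.04 and 0.01. All lists were chosen with earlier results of these data known.

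Markers of several other cell types were also higher in NKR-P1B+ cells. Summed signals of 9 antigen-presenting cell markers were 667 in NKR-P1B+ cells and 381 in Ly49s3+ cells, with RT1-Da at 346 and 97.7 and Cd74 at 197 and 120.0. Of 6 measured ones, 4 were higher in NKR-P1B+ cells. Batf3 (4.2 and 83.2) and the class II gene RT1-Ba (30.2 and 36.7) were higher in Ly49s3+ cells. Ciita, Flt3 and Clec9a were below the floor on both arrays. For 12 monocyte and macrophage markers the sums were 446 and 233, of which Lyz2 gave 356 and 133, while the others, Cd14, Cd68, Csf1r, C1qa, C1qb and C1qc among them, were below the floor on both arrays apart from Cd86, which had 21.9 and 11.8. For 7 B cell markers they were 159 and 97.3, led by Cd22 (103 and 52.9), with Ms4a1 and Cd79b below the floor, and for 4 plasma cell markers 220 and 108, led by Jchain (98.1 and 33.4) and Sdc1 (67.5 and 43.6). Myeloid, B and plasma cell sums were thus all higher in NKR-P1B+ cells, although 10 of 12 monocyte and macrophage markers and 5 of 7 B cell markers were below the floor. All 4 neutrophil markers, S100a9 and S100a8 among them, were below the floor too. The 7 T cell markers summed to 430.0 and 347, with Cd6 at 273 and 179 and Cd5 at 92.7 and 40.8. Cd3g (22.3 and 42.9), Cd28 (30.6 and 36.0) and Cd4 (3.3 and 20.6) were higher in Ly49s3+ cells. Not every list ran in that direction. The sum of 6 mast cell markers went the other way with 75.5 and 182, of which Mcpt10 alone gave 51.5 and 148. Cpa3 was below the floor in NKR-P1B+ cells and had 21.0 in Ly49s3+ cells. The other 4, Tpsab1, Kit, Ms4a2 and Fcer1a, were below the floor on both arrays. Erythroid markers summed to 371 and 345, with Hbb at 276 and 153 and Hemgn at 50.6 and 131. Platelet markers summed to 60.3 and 50.6, where only Pf4 (30.9 and 26.6) was above the floor and Ppbp had 4.9 and 16.6. Stromal markers summed to 68.4 and 72.4, where only Vwf (23.9 and 30.9) was above the floor and Col1a1 had 11.9 and 19.5. The 12 NK markers had a median log2 difference of 0.20, and their sums were 26430 and 22553. The ratio of 3′ to 5′ signal of actin was 11.9 in NKR-P1B+ cells and 13.2 in Ly49s3+ cells, and that of Gapdh was 2.84 and 2.77. The part of these cells and of RNA quality in the early response differences was not tested.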

How the data were processed

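Total RNA of each population was labelled and hybridised to 1 array. The authors deposited linear microarray intensity values, made with MAS5 per the submitters' processing notes. The sources used here name no MAS5 version or scaling target, and detection calls were not used here. Trimmed by 2% at both ends, each array had a mean signal of 100.04, so scale and direction could be read from the values, while the factor applied to each array stays unknown. The medians were 19.6 (NKR-P1B+) and 21.3 (Ly49s3+). Gene symbols came from the annotation of the platform. Of 31042 non-control probe sets, 20826 had 1 gene symbol, 436 several and 9780 none listed, and only the first were used.

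Signals were floored at 20.4, the 50th percentile, and converted to log2; genes with at least 1 array above the floor were called measured. The fold used was 1.5, with 2 as a larger one. All members, the 4 related signalling and stress lists, the second early response list and the marker lists were named by a rule: every member, up to 3 genes per direction of each related list with the largest differences at least 1.5-fold apart, and the 2 brightest of each marker list; other genes named were chosen after their values were seen, and 1 gene that the rule names, the one of the second early response list with the largest difference toward the Ly49s3+ array, is not reported here. Members and lists were chosen with earlier results of these data known. The probe-set SD came from the 2 brightest probe sets of each gene with 2 or more above the floor on both arrays: the SD of the difference between their log2 differences, divided by the square root of 2, by signal of the dimmer. The calculation was checked on arrays made with known 2-fold differences in brighter genes and the same noise at all signals. Smaller differences were not tried, and the check of the SD left out the lowest signal range. Alternatives were other floors, log2 of the value plus 32, centring, quantile normalisation, a loess trend (span 0.3), spike scaling and other choices of probe set. Python 3.11.15, pandas 2.3.3 and statsmodels 0.14.6 were used.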

Additional observations from a re-analysis of the deposited data

How the results depend on the processing

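With 1 array per population no replicate could be left out and no paired fit could be made. The count of 8 genes at least 1.5-fold higher in NKR-P1B+ cells was 8 or 9 under 9 of 10 alternatives (floors at the 35th and 65th percentiles, log2 of the value plus 32, genes above the floor on both arrays, centring, quantile normalisation, loess, and 2 other choices of probe set), and 24 with poly-A spike scaling. Centring added Egr1. No gene was lost from the 8 under any of the 10, and the count toward the Ly49s3+ array was 0 under each. Most of the 10 put little or no strain on the 8, however. Each has a single probe set, so the 2 other choices of probe set could not change it. Their signals also exceeded every floor used, so the settings that changed or required a floor left their differences as they were. Spike scaling and centring raised all 8. Only adding 32, quantile normalisation and loess lowered some of them. The median of 0.28 lay between 0.23 and 0.30 under those 9 and was 0.81 with spike scaling, where all 32 differences moved by more than the probe-set SD. The genes higher in NKR-P1B+ cells numbered from 24 to 26 under those 9 and 32 with spike scaling, and the genes measured from 31 to 34. With 32 added to each value, Atf3 had a log2 difference of 1.03 and Cebpb 0.59, in place of 1.29 and 0.85. With the mean over probe sets, Fosl2, Nr4a2, Zfp36l2 and Klf2 took the opposite sign, none of them 1.5-fold apart. Signal limits Egr3 and Ier3, which were below the floor.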

Other observations

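Beyond the genes named by rule, the second early response list held 6 more genes at least 1.5-fold higher in NKR-P1B+ cells, chosen here after their values were seen. Pim1, a survival kinase induced by cytokines, had 130 in NKR-P1B+ cells and 62.0 in Ly49s3+ cells (2.09-fold), and Cd83, a surface marker of activated lymphocytes and dendritic cells, had 1901 and 965 (1.97-fold). The Notch target Hes1 had 154 and 85.1 (1.81-fold), and Dusp1, the phosphatase that dampens p38 and JNK, had 1908 and 1096 (1.74-fold). Id2, a regulator needed for NK cell development, had 1567 and 912 (1.72-fold), and the clock gene Per1 had 393 and 258 (1.52-fold). Among the genes toward the Ly49s3+ array was Arc, which had 33.0 there and 17.0 in NKR-P1B+ cells, at least 1.62-fold apart.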
